A study of Homo sapiens with 6 samples.

Results

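Complex I of the respiratory chain (NADH:ubiquinone oxidoreductase) is built from subunits of 2 genomes, and the genes described here are those that the nucleus contributes. Every row of the deposited counts whose symbol starts with NDUF was taken, which gave 46 of 19330 genes. They were 38 rows of subunits, 7 assembly factors (NDUFAF1 to NDUFAF7) and 1 readthrough row, NDUFC2-KCTD14. By the letter that follows NDUF, the subunit rows were 14 of class A, 10 of class B, 2 of class C, 8 of class S, 3 of class V and the acyl carrier protein NDUFAB1. Class A includes NDUFA4, which is now counted with cytochrome c oxidase, and its paralog NDUFA4L2. NDUFB5 and NDUFAF8 were not analysed here.

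Complex I oxidizes NADH in a peripheral arm that reaches into the mitochondrial matrix, passes the electrons along iron-sulfur clusters to ubiquinone, and pumps protons through a membrane arm. The enzyme is usually divided into an N module, which binds NADH, a Q module, which reduces ubiquinone, which form the peripheral arm, and proximal and distal P modules in the membrane. Core subunits carry the cofactors and the proton channels, accessory subunits surround them, and assembly factors help to join the modules but are absent from the finished enzyme. The membrane-bound core subunits, named ND, are encoded by mitochondrial DNA, so that the enzyme needs transcripts from both genomes.

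The data were RNA-Seq counts from K562 cells, an established human line of chronic myelogenous leukemia. The cells were transduced with the lentiviral CRISPR vector pLentiCRISPRv2 carrying sgRNAs that were controls (sgCtrl) or targeted N6AMT1 (sgN6AMT1). Each condition had 3 libraries from independent transductions. N6AMT1 is a methyltransferase known for modifying the translation termination factor eRF1, and the comparison asked how its loss affects transcripts. For both conditions the labels give selection with 10 mg/ml puromycin and analysis 10 days after infection, and they list the control sgRNAs as OR11A1 and OR2M49. The study's methods differ from the labels, with a much lower puromycin concentration and controls that target EGFP or the pair OR11A1 and OR2M4. They also describe a pair of sgRNAs against N6AMT1. The sgRNA used for each library was not given in the sources used here, and no source describes single clones, so that each library stands for a transduced and selected population that may hold unedited cells.

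Replicates 1 to 3 of sgCtrl summed to 742470, 866894 and 866155 counts and those of sgN6AMT1 to 959319, 5526904 and 4062363. sgN6AMT1 replicates 2 and 3 were thus deeper than the other 4 libraries, and low values are better measured in them. N6AMT1 itself (chr21:28872191-28885371, minus strand) received 6, 5 and 9 counts in sgCtrl, against 0, 18 and 16 in sgN6AMT1. In cpm, the usual scaling to the total count of the library, the sgCtrl libraries averaged 8.08 ± 2.31 and the sgN6AMT1 libraries 2.40 ± 2.11 (SD, n = 3 each), and the conditions did not overlap (two-sided exact permutation test, p = 0.1, which is the lowest value that a design of 3 against 3 can reach). The 0 counts in sgN6AMT1 replicate 1 allow up to 3.13 cpm. Positions here and below are those of GENCODE v44 on GRCh38.

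All 11 erythroid and leukemia markers listed for K562 cells were detected, and the fetal globin gene HBG1 was the most abundant of them. Their summed level, in cpm after TMM scaling (normalized cpm), was 11660, 12150 and 18930 in sgCtrl and 19040, 24600 and 35660 in sgN6AMT1. HBG1, HBG2 and HBE1 rose and the transcription factor gene LMO2 fell past the threshold used below, and the part of this shift in the values of the complex I genes was not tested. Of 8 markers of other cell types, EPCAM alone passed the filter on low counts, with a mean normalized cpm of 155 ± 14.9 over the sgCtrl libraries, against 124 ± 29.97 over the sgN6AMT1 libraries (SD, n = 3 each). The B cell marker MS4A1 had 0 counts in the 6 libraries, and the T cell, monocyte and granulocyte markers CD3E, CD14 and MPO had none in sgCtrl. The hepatocyte marker ALB stood at 0, 1.154 and 0 normalized cpm in sgCtrl and at 5.27, 5.84 and 5.14 in sgN6AMT1, below the level at which genes were tested. Summed over the 8 genes, these markers stood at 145, 174 and 159 normalized cpm in sgCtrl and at 165, 129 and 108 in sgN6AMT1.

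Most of the nuclear-encoded complex I genes were not called. NDUFAF3, NDUFB2 and NDUFS4 rose in sgN6AMT1, NDUFA5 and NDUFAF2 fell, and the other 40 genes tested did not pass the threshold. A gene was called when its p from the quasi-likelihood test of edgeR, adjusted after Benjamini and Hochberg over the 8324 genes that passed the filter on low counts, was under 0.05. The 5 calls were 11.1% of the 45 NDUF genes tested, against 9.85% of all genes tested. In the higher direction, 3 NDUF genes were called where 5.09% of all genes were, and in the lower direction 2 were called where 4.76% of all genes were. A share this near to that of all genes is not a result about the family. Without sgCtrl replicate 1 or without sgCtrl replicate 2 the count of calls was 1, and without sgN6AMT1 replicate 2 or without sgN6AMT1 replicate 3 it was 3. The share of all genes called fell as well in those fits, to 3.50%, 2.54%, 5.85% and 6.37% in that order. In bulk RNA, fewer cells with a transcript and less of the transcript per cell cannot be told apart, which holds for every value given here.

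**Figure D1:**
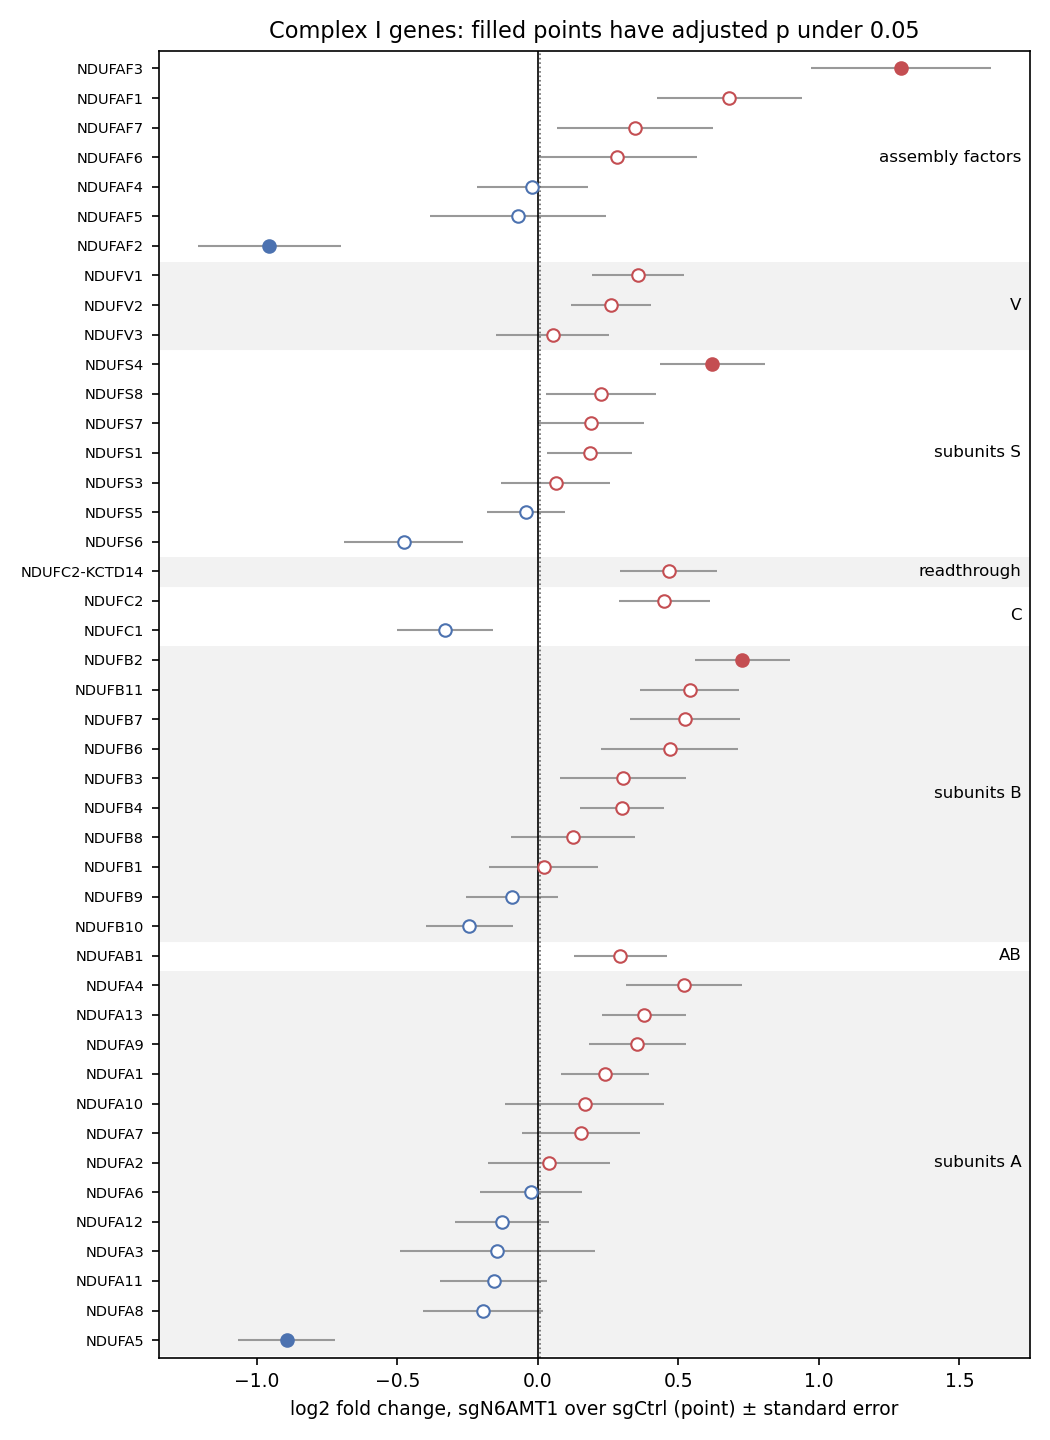
Log2 fold change (x axis, sgN6AMT1 over sgCtrl) of 44 of the 45 NDUF genes tested, with the standard error as a bar, ordered within each suffix class; filled points have an edgeR adjusted p under 0.05, and the dotted line is the median of all 8324 genes. The points reach from -0.96 (NDUFAF2) to 1.29 (NDUFAF3), and 30 of the 44 lie above 0.

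Weaker shifts ran more often upward than downward. Of the 45 genes, 31 (68.9%) had a log2 fold change above 0, against 50.8% of all genes tested, and the median was 0.18, against 0.01 for all genes. This gap of 0.18 on the log2 scale was 0.05 without the filter on low counts and 0.10 with a correction for GC content and transcript length. The NDUF median itself was 0.17 without the filter, so that there it was mainly the median of all genes that moved. With the correction the NDUF median was 0.12. It was 0.11 without sgN6AMT1 replicate 3 and 0.27 without sgCtrl replicate 3. An unadjusted p under 0.05 was reached by 14 NDUF genes (31.1%), where 26.2% of all genes reached it. Of the 14, 11 were higher in sgN6AMT1. Of the 2185 such genes among all genes tested, 1098 were higher, which is 13.2% of the 8324 tested. The conditions did not overlap for 15 NDUF genes (33.3%), where 29.2% of all genes did not overlap. Of the 15, 12 were higher in sgN6AMT1. Of the 2434 such genes among all genes tested, 1258 were higher, which is 15.1% of the 8324 tested. Relative to the sgCtrl mean of each gene, the median over the 45 genes was -0.05, -0.05 and 0.07 on the log2 scale in replicates 1 to 3 of sgCtrl, compared with 0.09, 0.17 and 0.22 in those of sgN6AMT1. The lowest sgN6AMT1 library was thus close to the highest sgCtrl library, replicate 3. These are descriptions of a family that was chosen by name, and no test was run on the median. The row NDUFC2-KCTD14, which may hold the reads of NDUFC2, is part of these counts, and the values without it are given below with that gene.

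**Figure D2:**
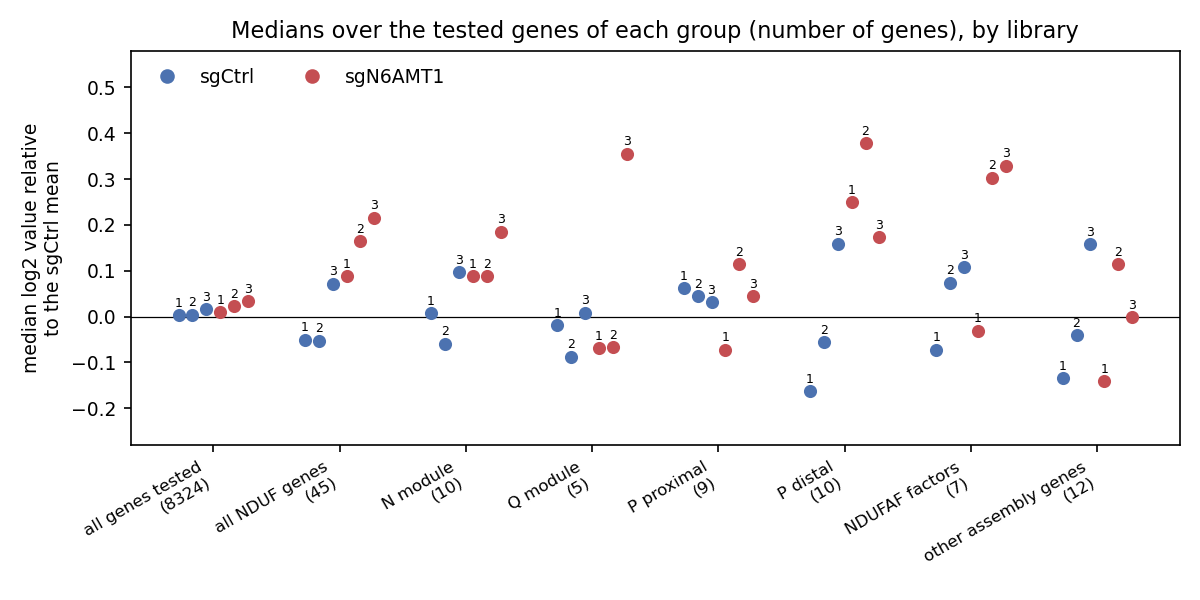
Median log2 value relative to the sgCtrl mean (y axis) over all genes tested, all NDUF genes, each module and the assembly genes (x axis, number of genes in brackets), with 1 point per library and its replicate number. For all NDUF genes the sgCtrl points lie between -0.05 and 0.07 and the sgN6AMT1 points between 0.09 and 0.22, and in most of the smaller groups the conditions overlap.

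The summed share of the counts was also higher in sgN6AMT1, by a small amount. NDUF genes took 0.524%, 0.537% and 0.577% of the counts in replicates 1 to 3 of sgCtrl, compared with 0.592%, 0.596% and 0.614% in sgN6AMT1. The 95% Wilson interval was 0.561 to 0.593% in sgCtrl replicate 3 and 0.577 to 0.607% in sgN6AMT1 replicate 1, so that these neighbours overlapped within counting error. Such intervals hold counting error alone, because reads without molecular identifiers are not independent molecules. Summed over the family, the mean level was 5499 normalized cpm in sgCtrl and 6136 in sgN6AMT1, a difference of 637, of which NDUFC2-KCTD14 made up 51.5 beside the 60.1 of NDUFC2. NDUFA4 (101.6), NDUFV2 (88.0), NDUFV1 (67.0) and NDUFB2 (62.0) added most to that difference in normalized cpm, and NDUFA5, at -104, took most from it. NDUFA4, the largest of these additions, is now counted with cytochrome c oxidase, so that its part of the difference is not one of complex I. Of these genes NDUFB2 and NDUFA5 passed the test.

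The 6 core subunits given here, which hold the flavin or iron-sulfur clusters or lie beside them, all had a log2 fold change above 0, against 50.8% of all genes. Their median was 0.21, against 0.01 for all genes. By edgeR or by DESeq2 0 of 6 were called, where edgeR called 9.85% of all genes and DESeq2 4.555%. The DESeq2 share is over a larger set of genes, without the filter on low counts, so that the shares are not alike. With 6 genes, a count of 0 is near those shares. NDUFV1 (chr11:67605653-67612554, plus strand), which binds NADH and the flavin, was the one with an unadjusted p under 0.05. Its level was 242, 243 and 239 normalized cpm in sgCtrl and 282, 258 and 385 in sgN6AMT1, a log2 fold change of 0.36 (SE 0.16, edgeR adjusted p = 0.169). Each sgN6AMT1 library lay above each sgCtrl library, with replicate 3 well above the other two. The log2 fold change was 0.16 without that library and 0.15 once GC content and length were corrected for.

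NDUFV2 (chr18:9102630-9134345, plus strand), an iron-sulfur subunit next to NDUFV1, had the highest summed count of the family. It stood at 399, 445 and 482 normalized cpm in sgCtrl and at 557, 533 and 500 in sgN6AMT1, with a log2 fold change of 0.26 (SE 0.14, edgeR adjusted p = 0.257). The conditions did not overlap, but the closest pair of libraries differed by less than the range within sgCtrl. NDUFS1, the largest iron-sulfur subunit of the N module, stood at 156, 153 and 183 in sgCtrl and at 193, 181 and 186 in sgN6AMT1 (log2 fold change 0.18, SE 0.15). Its groups overlapped, and its log2 fold change was 0.33 after correction for GC and length (edgeR adjusted p = 0.128).

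The core subunits of the Q module given here were not called. NDUFS3, which is part of the early Q module, had 117, 108 and 178 normalized cpm in sgCtrl and 126, 125 and 168 in sgN6AMT1 (log2 fold change 0.06, SE 0.19). In both conditions replicate 3 was the high one, and the groups overlapped.

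NDUFS7, which holds the last iron-sulfur cluster before ubiquinone, had 136, 116 and 120 normalized cpm in sgCtrl and 118, 118 and 184 in sgN6AMT1 (log2 fold change 0.19, SE 0.19). NDUFS8, which carries a pair of clusters ahead of it, had 153, 142 and 172 in sgCtrl and 135, 160 and 244 in sgN6AMT1 (log2 fold change 0.22, SE 0.19). For both genes sgN6AMT1 replicate 3 alone lay above the sgCtrl range, and without it the log2 fold changes were -0.07 for NDUFS7 and -0.06 for NDUFS8. With a correction for GC content and transcript length NDUFS3 and NDUFS7 lay below 0, and NDUFS8 was at 0.0046.

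Of the 29 accessory subunits tested, which are the subunit rows other than the core and NDUFA4, edgeR called 3 (10.3%, against 9.85% of all genes), a share near that of all genes. NDUFA5 had the lowest adjusted p of the 45 genes. NDUFA5 (chr7:123536997-123557904, minus strand) sits in the Q module. It stood at 222, 234 and 230 normalized cpm in sgCtrl and at 145, 134 and 94.1 in sgN6AMT1. The sgCtrl libraries were close together, at 229 ± 6.34 (SD, n = 3), and each sgN6AMT1 library was well below them, at 125 ± 27.0 (SD, n = 3). The log2 fold change was -0.89 (SE 0.17, edgeR adjusted p = 0.00389), a level 1.86-fold lower. The gene has 12 named pseudogenes in GENCODE v44, and how reads that map to several places were counted was not given in the sources used here, so that its counts could include or miss such reads. Its transcript also has a low GC content (34.6%, against a median of 47.0% over all genes tested), and after correction for GC content and length the log2 fold change was -0.68 with edgeR adjusted p = 0.00424.

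NDUFS4 (chr5:53560633-53683338, plus strand), an accessory subunit that holds the N module on the peripheral arm, rose from 59.1, 63.4 and 50.7 normalized cpm in sgCtrl to 91.7, 84.1 and 91.5 in sgN6AMT1. The libraries of each condition lay close together and the conditions were well apart. The log2 fold change was 0.62 (SE 0.19, edgeR adjusted p = 0.0429), a level 1.54-fold higher. The call was near the threshold, with an adjusted p of 0.0939 from DESeq2 and of 0.0695 to 0.112 from edgeR when any one library was left out.

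NDUFS6, a zinc-binding accessory subunit of the same module, had the lowest log2 fold change of class S. It stood at 161, 166 and 111 normalized cpm in sgCtrl and at 140, 107 and 76.1 in sgN6AMT1, a log2 fold change of -0.48 (SE 0.21, edgeR adjusted p = 0.158). The groups overlapped, and the test was not passed. Without sgN6AMT1 replicate 1 the log2 fold change was -0.67 (edgeR adjusted p = 0.0396), and without sgN6AMT1 replicate 3 it was -0.28. Within a library, the ratio of NDUFS4 to NDUFS6 counts was 0.367, 0.382 and 0.457 in sgCtrl and 0.654, 0.788 and 1.203 in sgN6AMT1. These are the highest and lowest genes of class S, so that a shift of their ratio follows from that choice and adds no support. NDUFV3, the accessory subunit of class V, had a log2 fold change of 0.05 (SE 0.20), with 56.4, 57.7 and 69.6 in sgCtrl and 64.3, 55.5 and 71.5 in sgN6AMT1. The rest of the N module, NDUFA2, NDUFA6, NDUFA7 and NDUFA12, lay between -0.13 and 0.15, with 0 calls by edgeR or DESeq2 and 0 unadjusted p under 0.05. Of all genes, edgeR called 9.85%, and 26.2% had an unadjusted p under 0.05, so that so few genes show no difference from them.

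The distal part of the membrane arm, which is made of the class B subunits, had the highest median of the modules. Its 10 genes had a median log2 fold change of 0.30, with 8 above 0, 1 called (10.0%, against 9.85% of all genes) and 3 with an unadjusted p under 0.05 (against 26.2% of all genes), shares that are near those of all genes. NDUFB2 (chr7:140690777-140722790, plus strand) rose from 87.3, 81.9 and 113 normalized cpm in sgCtrl to 157, 150 and 161 in sgN6AMT1. The sgN6AMT1 libraries were close together and all above the highest sgCtrl library. The log2 fold change was 0.73 (SE 0.17, edgeR adjusted p = 0.0129), a level 1.66-fold higher.

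NDUFB11, a small X-linked subunit with a single membrane helix, stood at 104, 157 and 122.6 normalized cpm in sgCtrl and at 191, 161 and 208 in sgN6AMT1 (log2 fold change 0.54, SE 0.18, edgeR adjusted p = 0.0581). The conditions did not overlap, but the nearest libraries, both replicate 2, almost met. NDUFB11 was called without a filter on low counts (edgeR adjusted p = 0.0332) and with at least 10 counts in every library (0.048), while after correction for GC and length its log2 fold change was 0.35 (edgeR adjusted p = 0.204). NDUFB10, a subunit that faces the intermembrane space, was the lowest of the class, with 155, 197 and 187 in sgCtrl and 160, 148 and 150 in sgN6AMT1 (log2 fold change -0.24, SE 0.15, edgeR adjusted p = 0.332). Its groups overlapped, and with the same correction its log2 fold change was -0.44 (edgeR adjusted p = 0.064). The ratio of NDUFB2 to NDUFB10 counts was 0.565, 0.415 and 0.604 in sgCtrl and 0.98, 1.01 and 1.08 in sgN6AMT1, which likewise follows from taking the highest and the lowest gene of the class. NDUFB7, at a log2 fold change of 0.52 (SE 0.20, edgeR adjusted p = 0.098), had an unadjusted p under 0.05 with overlapping groups. The other 6 class B genes, NDUFB1, NDUFB3, NDUFB4, NDUFB6, NDUFB8 and NDUFB9, lay between -0.09 and 0.47. NDUFB4 was the one of these 6 whose groups did not overlap, and it has 12 named pseudogenes.

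In the proximal part of the membrane arm 4 of 9 genes lay above 0, with a median log2 fold change of -0.04 and 0 calls by edgeR or DESeq2 (9.85% of all genes were called by edgeR). An unadjusted p under 0.05 was reached by 2 of them (22.2%), below the 26.2% of all genes. NDUFA13, also known as GRIM-19, stood at 132, 157 and 149 normalized cpm in sgCtrl and at 187, 193 and 188 in sgN6AMT1 (log2 fold change 0.38, SE 0.15, edgeR adjusted p = 0.117). After correction for GC and length its log2 fold change was 0.19 (edgeR adjusted p = 0.412). NDUFC2 stood at 185, 134 and 170 in sgCtrl and at 237, 198 and 235 in sgN6AMT1 (log2 fold change 0.45, SE 0.16, edgeR adjusted p = 0.0839). NDUFC1, the other class C subunit, ran the opposite way, at 108, 106 and 95.5 in sgCtrl and 89.6, 81.8 and 76.6 in sgN6AMT1 (log2 fold change -0.33, SE 0.17, edgeR adjusted p = 0.232). For each of these 3 genes the conditions did not overlap, and none passed the test. NDUFA1, NDUFA3, NDUFA8, NDUFA10, NDUFA11 and NDUFS5 lay between -0.20 and 0.24, with overlapping groups.

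The readthrough row NDUFC2-KCTD14 cannot be taken as a separate measurement, although it is among the 45 genes counted above. Its canonical transcript shares 339 exon bases with that of NDUFC2 on the same strand, and its counts were 0.806 to 0.885 times those of NDUFC2 in the 6 libraries. It stood at 160, 110 and 137 normalized cpm in sgCtrl and at 193, 160 and 208 in sgN6AMT1 (log2 fold change 0.46, SE 0.17, edgeR adjusted p = 0.0931), and it does not stand beside NDUFC2 as independent evidence. After correction for GC and length its log2 fold change was 0.31. How reads that fit both rows were counted was not given in the sources used here. Without the row, 30 of 44 genes lay above 0 (68.2%) with a median log2 fold change of 0.17, 5 were called, 13 had an unadjusted p under 0.05 (10 higher) and 14 did not overlap (11 higher). The summed level then differed by 586 normalized cpm between the conditions, 5363 in sgCtrl and 5949 in sgN6AMT1. Transcripts of NDUFA2 and of NDUFA3 also share exon bases with genes on the other strand (120 with TMCO6 and 150 with TFPT), and whether the counting used the strand was not given in the sources used here.

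Members outside the module lists used here were NDUFA9, NDUFAB1, NDUFA4 and NDUFA4L2. NDUFA9, an accessory subunit near the ubiquinone site, was left out of these lists, so that no module median, that of the Q module included, holds it. It had 116, 118 and 126 normalized cpm in sgCtrl and 134, 136 and 186 in sgN6AMT1 (log2 fold change 0.35, SE 0.17, edgeR adjusted p = 0.201). Its groups did not overlap. NDUFAB1, the acyl carrier protein that occurs in both arms, had a log2 fold change of 0.29 (SE 0.17, edgeR adjusted p = 0.275). NDUFA4, now counted with cytochrome c oxidase despite its name, was the highest of class A, at 187, 181 and 347 normalized cpm in sgCtrl and 282, 349 and 388 in sgN6AMT1. sgCtrl replicate 3 lay within the sgN6AMT1 range, and the log2 fold change of 0.52 (SE 0.21) had an edgeR adjusted p = 0.116, and of 0.0225 without a filter on low counts. Without that library the log2 fold change was 0.89 (edgeR adjusted p = 0.0102), and without sgCtrl replicate 1 or sgCtrl replicate 2 it was 0.37 or 0.34 (edgeR adjusted p = 0.365 or 0.436). Its paralog NDUFA4L2 received 0, 4 and 0 counts in sgCtrl, against 0, 1 and 3 in sgN6AMT1, and it was the one NDUF gene that did not pass the filter.

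**Figure D3:**
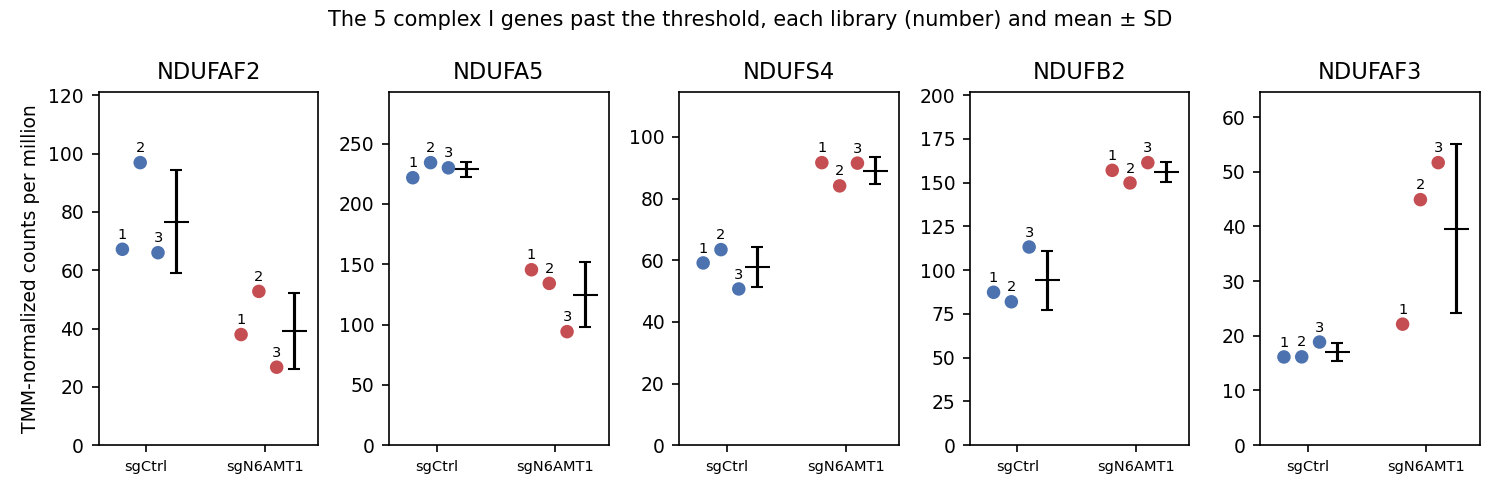
Normalized cpm (y axis, from 0) of the 5 NDUF genes called by edgeR in each library (points with replicate numbers), with the mean and SD over 3 libraries per condition as a bar. NDUFA5 and NDUFAF2 lie lower in the 3 sgN6AMT1 libraries than in any sgCtrl library and NDUFS4, NDUFB2 and NDUFAF3 higher, and for NDUFAF3 sgN6AMT1 replicate 1 is close to the sgCtrl libraries.

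The assembly factors had both the highest and the lowest log2 fold change of the family. Of the 7 NDUFAF genes, 4 lay above 0 and 3 below, with a median of 0.28, and 1 was called in each direction, where 5.09% of all genes were called higher and 4.76% lower. With 7 genes, these 2 calls (28.6%, against 9.85% of all genes) are too few to describe the class. NDUFAF3 (chr3:49020459-49023495, plus strand), which acts with NDUFAF4 on the early Q module, had 12, 14 and 16 counts in sgCtrl, against 21, 246 and 201 in the sgN6AMT1 libraries of unequal depth. As normalized cpm this was 16.1, 16.2 and 18.9 in sgCtrl and 22.1, 44.9 and 51.7 in sgN6AMT1. The conditions did not overlap, but sgN6AMT1 replicate 1 was nearer to sgCtrl than to the other two sgN6AMT1 libraries, and its 95% Wilson interval of 14.3 to 33.5 cpm covered the level of each sgCtrl library. The log2 fold change was 1.29 (SE 0.32, edgeR adjusted p = 0.0167), a level 2.45-fold higher, and the deeper libraries were the high ones.

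Its partner NDUFAF4 was not called. It stood at 52.4, 66.9 and 73.1 normalized cpm in sgCtrl and at 62.2, 67.0 and 60.7 in sgN6AMT1, a log2 fold change of -0.02 (SE 0.20). The ratio of NDUFAF3 to NDUFAF4 counts was 0.308, 0.241 and 0.258 in sgCtrl and 0.356, 0.67 and 0.852 in sgN6AMT1, again highest in the deeper libraries. NDUFAF3 is the highest of the assembly factors, so that a shift of this ratio adds no support, and the part of depth in it was not tested.

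NDUFAF2 (chr5:60945177-61154531, plus strand), a paralog of the subunit NDUFA12 that is known to act when the N module is attached, fell from 67.2, 96.9 and 66.0 normalized cpm in sgCtrl to 37.9, 52.7 and 26.7 in sgN6AMT1. The sgN6AMT1 libraries all lay below the lowest sgCtrl library, and replicate 2 was the highest within each condition. The log2 fold change was -0.96 (SE 0.25, edgeR adjusted p = 0.0246), a level 1.94-fold lower. NDUFA12 itself stood at 133, 101 and 125 in sgCtrl and at 105, 107 and 116 in sgN6AMT1, with overlapping groups and a log2 fold change of -0.13 (SE 0.17). NDUFAF2 has 2 named pseudogenes and NDUFB2 has 1, while NDUFAF3 and NDUFS4 have 0.

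NDUFAF1, which works on the membrane arm in a complex with ECSIT and ACAD9, had 22.8, 21.9 and 23.6 normalized cpm in sgCtrl and 30.6, 38.0 and 38.8 in sgN6AMT1. The groups lay apart, yet the log2 fold change of 0.68 (SE 0.26) had an edgeR adjusted p = 0.101, on 17 to 20 counts per sgCtrl library. NDUFAF5, which modifies NDUFS7, stood at a log2 fold change of -0.07 (SE 0.31), NDUFAF6 at 0.28 (SE 0.28), and NDUFAF7, a methyltransferase, at 0.35 (SE 0.28). Differences of the size seen for NDUFAF6 and NDUFAF7 were about as large as their standard errors.

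**Figure D4:**
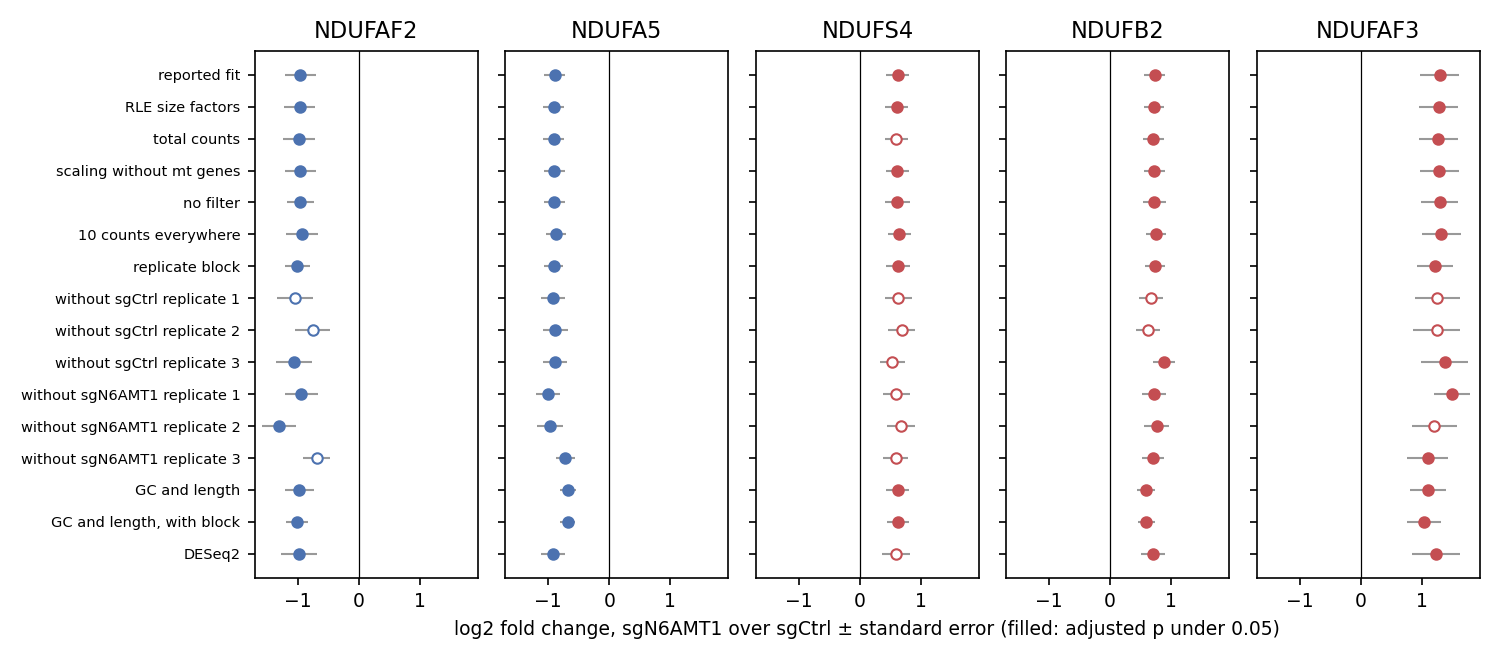
Log2 fold change with its standard error (x axis, sgN6AMT1 over sgCtrl) of the 5 called NDUF genes under the reported fit and 15 alternatives (y axis); filled points have an adjusted p under 0.05. NDUFA5 is filled throughout, between -1.001 and -0.68, and NDUFS4 keeps its direction but is open in 8 of the 15 alternatives.

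The direction of the 5 called genes was the same in each of 15 other fits, which changed the scaling, the filter, the covariates or the tool, or left out 1 library. DESeq2, one of them, called NDUFA5, NDUFAF2, NDUFAF3 and NDUFB2. NDUFA5 was called in 15 of the fits, NDUFB2 in 13, NDUFAF2 and NDUFAF3 in 12 each and NDUFS4 in 7. NDUFB2 was not called without sgCtrl replicate 1 (edgeR adjusted p = 0.0639) or without sgCtrl replicate 2 (0.102). NDUFAF3 was not called without sgCtrl replicate 1 (0.0674), sgCtrl replicate 2 (0.0941) or sgN6AMT1 replicate 2 (0.0546), and NDUFAF2 was not called without sgCtrl replicate 1 (0.0534), sgCtrl replicate 2 (0.17) or sgN6AMT1 replicate 3 (0.0597).

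Assembly genes without an NDUF symbol did not pass the test. Of 15 such genes, 12 passed the filter on low counts, 7 lay above 0 and 5 below. The median log2 fold change was 0.15, against 0.01 for all genes. There were 0 calls by edgeR (against 9.85% of all genes) and 0 by DESeq2 (against 4.555% of a larger set without the filter on low counts). An unadjusted p under 0.05 was reached by 1 gene (8.33%, against 26.2% of all genes). That gene was TIMMDC1, a membrane-arm assembly factor that is singled out here after its values were seen. It stood at 40.3, 60.0 and 88.4 normalized cpm in sgCtrl and at 39.0, 37.2 and 36.2 in sgN6AMT1 (log2 fold change -0.76, SE 0.25, edgeR adjusted p = 0.0564). The sgN6AMT1 libraries were close together, and sgCtrl replicate 1 nearly met them. The gene was near the threshold and was called in some other fits. It passed without a filter on low counts (edgeR adjusted p = 0.0184), after correction for GC and length (0.0499) and without sgCtrl replicate 1, where the log2 fold change was -0.996 (0.0332). Without sgCtrl replicate 3 the log2 fold change was -0.44 (edgeR adjusted p = 0.285). ECSIT, the partner of NDUFAF1, had a log2 fold change of 0.49 (SE 0.24, edgeR adjusted p = 0.196), and ACAD9, another member of that complex, had 0.16 (SE 0.27).

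Of the 7 mt-DNA-encoded subunits of the same enzyme, 6 fell, each with a log2 fold change below that of any nuclear-encoded complex I gene. All 7 MT-ND genes had a log2 fold change below 0, from -2.59 (MT-ND4L) to -1.14 (MT-ND6), with a median of -2.20. MT-ND6 was the one not called, with edgeR adjusted p = 0.0655. Their summed share of the counts was 2.03%, 1.59% and 1.26% in sgCtrl and 0.718%, 0.175% and 0.102% in sgN6AMT1. For each count on an NDUF gene there were 3.87, 2.96 and 2.19 counts on MT-ND genes in sgCtrl, and 1.21, 0.293 and 0.166 in sgN6AMT1. The conditions did not overlap for this ratio. Since the MT-ND counts are part of the total, the NDUF share was also taken over the counts without mt-DNA-encoded genes, where it averaged 0.57% ± 0.0225 over the sgCtrl libraries, against 0.607% ± 0.00816 over the sgN6AMT1 libraries (SD, n = 3 each).

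**Figure D5:**
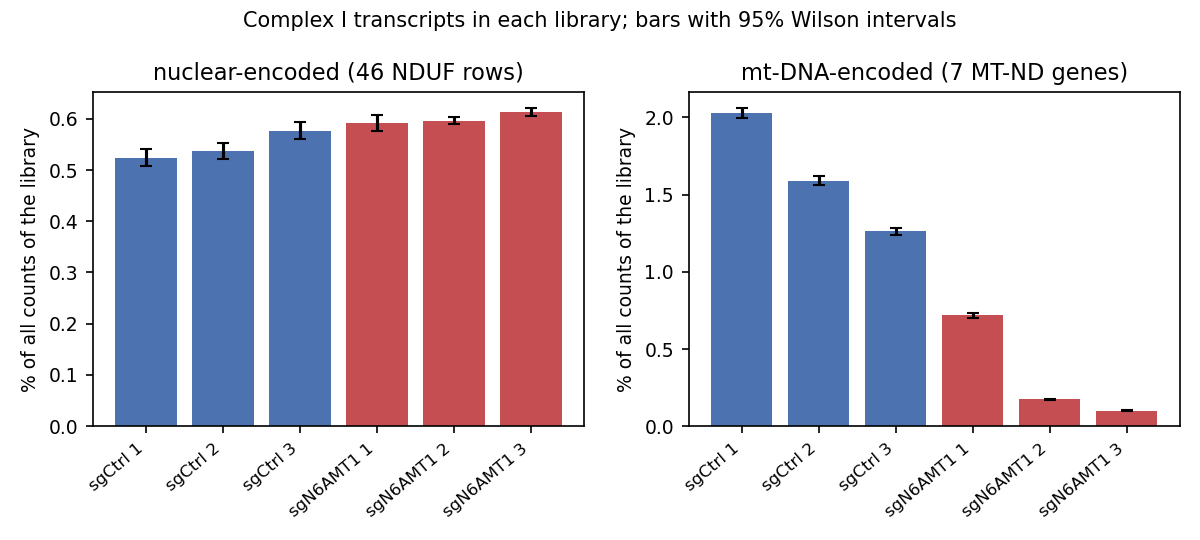
Percent of all counts of each library (y axes, from 0, on different scales) on the 46 NDUF rows (left) and on the 7 MT-ND genes (right), with 95% Wilson intervals that cover counting error only. The NDUF share lies between 0.524% and 0.614%, while the MT-ND share goes from 2.03% in sgCtrl replicate 1 to 0.102% in sgN6AMT1 replicate 3.

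Levels within the family differed far more than the conditions did. Per kilobase of canonical transcript, the highest sgCtrl means were those of the accessory subunits NDUFS5 (649 normalized cpm per kb) and NDUFA1 (560) and of NDUFV2 (516). Among the tested genes the lowest were the assembly factor NDUFAF5 (4.28), NDUFA10 (7.58) and NDUFV3 (10.7). All 7 assembly factors except NDUFAF2 (121) stood below 30 in sgCtrl, with NDUFAF4 (26.6) and NDUFAF3 (18.9) next. A long annotated transcript, such as the 11660 bases of NDUFS1, lowers such a value, and whether the cells use shorter isoforms was not tested.

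Promoter sequence was not used in choosing the family and was described for a few known motifs, with no test. RefSeq promoter windows on GRCh38.p14, from 250 bases before to 50 after the start, were at hand for 39 of the 46 genes. Both strands were searched for a core of nuclear respiratory factor 1 (NRF1; GCATGCGC or TGCGCATG, which overlap in the palindromic form of the site), of YY1 (AAGATGGC), of GABP and other ETS factors (CCGGAAGT) and for the SP1 box (GGGCGG). The NRF1 letters occurred in 8 of 39 windows (20.5%), against 4.9% of 15843 windows of protein-coding genes, and the YY1 letters in 6 (15.4%), against 3.9%. For the ETS core the share was 5.1%, against 6.2%, and for the SP1 box 59.0%, against 58.5%. The windows below show the NRF1 letters in a Q module assembly factor, in a membrane-arm subunit and in the N module subunit NDUFS6, and the YY1 letters in NDUFS4, the one called gene that held either, with the matched letters in capitals and the gene's strand read 5′ to 3′.
NDUFAF4 (chr6:96897870-96897894, minus strand): ctcacttgTGCGCATGCtccgggtg
NDUFB4 (chr3:120596169-120596195, plus strand): agcacttcGCGCATGCGCAtatcaccg
NDUFS6 (chr5:1801352-1801376, plus strand): agaagccgTGCGCATGCgttagcgc
NDUFS4 (chr5:53560652-53560675, plus strand): cctgcagcAAGATGGCggcggtgt

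The 8 genes with the NRF1 letters had log2 fold changes from -0.48 to 0.30 with a median of -0.02, 3 above 0, 5 below and 0 called by edgeR or DESeq2 (1 with an unadjusted p under 0.05, NDUFS6), and the 31 other genes with a window had a median of 0.24, with 24 above 0 and 5 called. The 6 genes with the YY1 letters had a median of 0.17, with 4 above 0 and 1 called, and the 33 without had 0.18, with 4 called. Of all genes tested, edgeR called 9.85%, 50.8% lay above 0 and 26.2% had an unadjusted p under 0.05. The motif groups are small and were not tested, so that their counts of calls describe no difference by motif. The windows of NDUFB2 and NDUFAF2 held the SP1 box alone, and those of NDUFA5 and NDUFAF3 held none of the letters searched. For 16 of the 39 genes, NDUFA5 and NDUFB2 among them, the RefSeq start lay more than 100 bases from the GENCODE start of the gene, so that other promoters of these genes were not searched.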

How the data were processed

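Reads of 3 sgCtrl and 3 sgN6AMT1 libraries were trimmed by the authors with cutadapt (minimum length 15, quality cutoff 2) and mapped with HISAT2 to GRCh38. The deposited values are raw counts per gene on Ensembl release 84; the counting tool, its use of the strand and its treatment of multimapping reads were not given in the sources used here. The labels list polyA RNA, whereas their protocol describes rRNA-depleted total RNA. Conditions and replicate numbers came from the labels. Genes were filtered with filterByExpr, given TMM factors and compared with the quasi-likelihood functions glmQLFit and glmQLFTest (edgeR 4.0.16, R 4.3.3) without covariates. This left 8324 genes with a common biological coefficient of variation of 0.16. The fit was tested on simulated data. DESeq2 1.42.0, which the authors used, was an alternative. Shares carry 95% Wilson intervals, and a count of 0 was read as up to 3 counts.

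The members and lists were chosen with earlier results of these data known. Members given by library were the called genes, those with an unadjusted p under 0.05 and no overlap, the core subunits save 1 that is not reported here, the highest and lowest of each suffix class and of the assembly factors, the most and least abundant, and those not tested. NDUFAF4, NDUFA9, NDUFA12, NDUFB7 and the members and assembly genes given by fold change alone were added to complete their group. Libraries of 1 condition differed by more than sampling noise. The chi-square of raw counts divided by its degrees of freedom was 2.09 to 3.93 for pairs of sgCtrl libraries and 4.46 to 15.3 for pairs of sgN6AMT1 libraries. Each sgN6AMT1 pair holds a deeper library, and this value grows with depth, so that it does not compare the spread of the conditions. All 46 NDUF symbols matched GENCODE v44, from which the canonical transcript gave length and GC content.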

Additional observations from a re-analysis of the deposited data

How the results depend on the processing

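Of the NDUF genes, 5 were called (3 higher, 2 lower). With RLE size factors there were 5, with scaling without mt-DNA-encoded genes 5, with the GC and length correction 5, with total counts 4, with DESeq2 4, with at least 10 counts in every library 6 and without a filter 7, of which 5 were higher. The share of all genes called was 9.95% with RLE size factors, 9.97% with scaling without mt-DNA-encoded genes and 11.1% with the correction. It was 9.49% with total counts, 4.555% with DESeq2, 9.83% with at least 10 counts and 8.66% without a filter. The shares with DESeq2 and without a filter are over a larger set, which holds genes with low counts. The NDUF genes tested were 46 with DESeq2 and without a filter, 44 with at least 10 counts and 45 in the other fits. An adjusted p under 0.01 left 1 gene, and one under 0.1 gave 9. Leaving out 1 library at a time gave 1 to 6 calls, 0 to 3 higher and 1 to 3 lower. The lowest counts were those without sgCtrl replicate 1 (1) and without sgCtrl replicate 2 (1), followed by those without sgN6AMT1 replicate 2 (3) and without sgN6AMT1 replicate 3 (3). With 1 library left out, the calls over all genes went from 820 (9.85%) to between 220 (2.54%) and 951 (11.2%). In these fits the spread of the smaller arm was pooled with the other.

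With a replicate block, 10 NDUF genes were called (8 higher, 2 lower), and with the block and the GC and length correction 10 (6 higher, 4 lower), while over all genes the block gave 1195 calls (14.4%) and both together 1303 (16.8%). NDUFA4 (edgeR adjusted p = 0.0171), NDUFB11 (0.0376), NDUFC2 (0.0372) and NDUFC2-KCTD14 (0.0398) were among those called with the block, and NDUFS6 (0.00287), NDUFB10 (0.0244), NDUFA4 (0.000779) and NDUFC2 (0.00897) among those called with both. Same-numbered libraries deviated together with r = -0.000522, 0.0827 and 0.19 for replicates 1 to 3, and sgCtrl replicate 2 correlated best with sgN6AMT1 replicate 1, so that the numbers were not taken to pair the libraries. The other complex I assembly genes, with 0 calls, had 1 (TIMMDC1) without a filter, with the replicate block, with the GC and length correction, with both, and without sgCtrl replicate 1 (0 to 1 over the libraries left out).

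The median log2 fold change of 0.18 lay between 0.11 (without sgN6AMT1 replicate 3) and 0.27 (without sgCtrl replicate 3), and was 0.105 with the GC and length correction and the block. Its gap to the median of all genes was 0.18 in the reported fit. The gap was 0.05 without a filter, where the NDUF median itself was 0.17. It was 0.10 with the GC and length correction and 0.09 with the block added. Signs turned for members near 0. With the GC and length correction NDUFS3 was at -0.10 and NDUFS7 at -0.0391, and with the block added NDUFS3 was at -0.10, NDUFS7 at -0.0443 and NDUFS8 at -0.0153. With 1 library left out, NDUFS3 lay between -0.10 and 0.32, NDUFS7 between -0.0683 and 0.31, NDUFS8 between -0.0589 and 0.37 and NDUFV3 between -0.0629 and 0.16. The causes were not tested. Without the readthrough row, an alternative chosen after seeing the data, 5 NDUF genes were called, the median was 0.17, and the mean share of the counts was 0.533% in sgCtrl and 0.582% in sgN6AMT1. Low counts limit several members, such as NDUFA3 with 12, 9 and 12 counts in sgCtrl and 4 of the assembly factors with under 30 counts in each sgCtrl library.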

Other observations

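GC content and the log2 fold change were related across all genes tested with a value (Pearson's r = 0.23, Spearman's rho = 0.26, 7760 genes), and less so across the 45 NDUF genes (r = 0.15, rho = 0.02). Genes of 1 library share its depth and base composition and are not independent replicates. The NDUF genes tested had a median canonical transcript length of 737 bases, against 3370 for all genes tested, and a median GC content of 48.5%, against 47.0%.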
